A study of Mus musculus with 6 samples.

Results

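The genes followed here encode the proteasome, its regulators and its assembly factors. They were chosen by their symbols, as every feature whose name starts with Psm, one of the letters a to g and a digit, with the immunoproteasome genes Psmb8 and Psmb9 set apart. This gave 48 genes of 31055 features. The cells were neoplastic cells sorted from lung tumors of 6 mice and profiled by 10x single-cell RNA sequencing, in which each captured transcript carries a unique molecular identifier (UMI). All mice carried KrasLSL-G12D, Lkb1XTR/XTR and Rosa26LSL-tdTomato, and tumors were started with Lenti-Cre and grew for 20 weeks before 2 weeks of tamoxifen (4 mg doses) or vehicle. Lkb1 is the common name of the tumor suppressor gene Stk11, and its XTR allele holds a gene trap with a GFP sequence that Cre turns on and FLPo-ERT2 with tamoxifen removes. The 3 Restored mice, 1 female and 2 male, carried FLPo-ERT2 and received tamoxifen. The 3 NonRestored mice were 1 male without FLPo-ERT2 given tamoxifen, 1 male without FLPo-ERT2 given vehicle and 1 female with FLPo-ERT2 given vehicle. The labels give no age, and every NonRestored mouse had a different combination of allele and treatment. The sort kept tdTomato-positive cells and left out those with CD45, CD31, F4/80 or Ter119.

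The libraries were pooled in 1 matrix of 16017 cells with no name of the mouse on a cell, so the mice of the 2 labeled groups cannot be compared here, the matrix counts as 1 sample, and no test between groups of cells was made. Whether libraries share cell barcodes could not be counted without a barcode list. The 95% intervals below are exact and cover counting error only. Cells with at least 500 genes and at most 20% mitochondrial UMIs were kept, which left 12183 cells with 257163522 UMIs and a median of 19348 UMIs per cell (671 to 125731). Cells were then gated by their own UMIs per 10000. The ATII gate, named for surfactant-secreting alveolar type II cells, required Sftpc of at least 500, Hopx under 2 and Krt8 plus Krt18 under 50, and held 6975 cells with a median of 21660 UMIs. The ATI gate, named for the flat type I cells of gas exchange, required Hopx of at least 15 and Krt8 plus Krt18 under 50, and held 956 cells with a median of 11797 UMIs. The keratin-high gate required Krt8 plus Krt18 of at least 50 and held 1183 cells with a median of 23490 UMIs, while 3069 cells fell outside the gates.

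The gate names were checked against marker lists, which include the genes that set the gates. Summed over 12 ATII markers, the level was 219924 UMIs per 1000000 (CPM) in the ATII gate, 60746 in the ATI gate and 33309 in the keratin-high gate. The sum of 11 ATI markers was 2239, 16167 and 5560 CPM in the same order, and that of 8 keratin-high transitional markers was 1957, 5303 and 16671 CPM. The genes that set the gates made up much of these sums, with Sftpc alone at 155328, 47497 and 19250 CPM. Without Sftpc the ATII list summed to 64596, 13248 and 14060 CPM, without Hopx the ATI list to 2203, 12670 and 5148 CPM, and without Krt8 and Krt18 the transitional list to 893, 3068 and 7442 CPM. Each list was highest in the gate of its name with and without them. Markers of endothelial cells summed to 3.12, 4.50 and 2.28 CPM over the 3 gates, fibroblast markers to 30.9, 9.82 and 10.6 CPM, myeloid markers to 7.32, 2.85 and 4.96 CPM and T cell markers to 0.0867, 0.0749 and 0.424 CPM. Club cell markers summed to 121, 43.6 and 16.0 CPM. Ciliated cell markers summed to 30.1, 151 and 290 CPM, of which Tppp3 was 24.1, 137 and 286 CPM. Leaving out the 912 cells with markers of other cell types or of the airway was a choice made after seeing the data. The counts of members past the fold, given below, were then 22 higher and 5 lower for ATI over ATII, beside 26.6% and 29.2% of all genes. For keratin-high over ATII they were 33 and 1, beside 29.8% and 29.6%, and for keratin-high over ATI 25 and 0, beside 25.4% and 24.4%.

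The 26S proteasome is the protease that degrades proteins tagged with ubiquitin. Its 20S core is a barrel of alpha rings, which gate the entry, around beta rings, which hold the catalytic sites, and its 19S cap binds ubiquitin chains, removes them, unfolds the protein with a ring of ATPases and feeds it into the core. Dedicated chaperones build both parts of the particle, and other activators of the PSME family can replace the cap. Of the 48 genes, 14 were core genes (Psma1 to Psma7 and Psmb1 to Psmb7) and 17 were cap genes (the ATPases Psmc1 to Psmc6 and 11 non-ATPase Psmd genes). The others were the chaperones of the 19S base Psmd5, Psmd9 and Psmd10, the core assembly chaperones Psmg1 to Psmg4, the activators Psme1, Psme2, Psme2b, Psme3 and Psme4, the alternative core genes Psma8 (testis), Psmb11 (thymus) and Psmb10 (immunoproteasome), the inhibitor Psmf1, and Psmc3ip, which the symbol rule takes although its product is a factor of meiotic recombination and no proteasome subunit.

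Promoters of 4 members are printed because these genes mark the range of the results: Psmd14 and Psmd12, cap genes near the top of the keratin-high ratios, Psmb5, a catalytic core gene, and Psme1, the activator gene with the lowest keratin-high ratio over the ATII gate. Each is the RefSeq window (GRCm38.p6) from 250 bases before to 50 after the gene's start, on the gene's strand. The windows are chr2:61711444-61711743 (plus) for Psmd14, chr11:107479278-107479577 (plus) for Psmd12, chr14:54617946-54618245 (minus) for Psmb5 and chr14:55578244-55578543 (plus) for Psme1. Capitals mark matches on either strand of 3 motifs: the CCAAT box (CCAAT), the core of the antioxidant response element (TGACNNNGC), to which factors of the Nfe2l family bind, and the core of the interferon-stimulated response element (TTTC, any 2 letters and TTTC again).
Psmd14: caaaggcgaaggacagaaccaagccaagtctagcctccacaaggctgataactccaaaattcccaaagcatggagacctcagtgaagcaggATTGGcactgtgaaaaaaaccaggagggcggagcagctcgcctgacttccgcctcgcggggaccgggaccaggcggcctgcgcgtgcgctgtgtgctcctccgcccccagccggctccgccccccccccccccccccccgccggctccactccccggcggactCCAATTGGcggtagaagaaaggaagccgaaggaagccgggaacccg
Psmd12: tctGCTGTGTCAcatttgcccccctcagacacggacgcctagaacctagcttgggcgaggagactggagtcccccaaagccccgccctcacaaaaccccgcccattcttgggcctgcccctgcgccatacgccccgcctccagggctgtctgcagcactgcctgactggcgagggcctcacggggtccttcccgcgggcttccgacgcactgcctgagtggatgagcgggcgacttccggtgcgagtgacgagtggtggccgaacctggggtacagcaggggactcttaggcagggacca
Psmb5: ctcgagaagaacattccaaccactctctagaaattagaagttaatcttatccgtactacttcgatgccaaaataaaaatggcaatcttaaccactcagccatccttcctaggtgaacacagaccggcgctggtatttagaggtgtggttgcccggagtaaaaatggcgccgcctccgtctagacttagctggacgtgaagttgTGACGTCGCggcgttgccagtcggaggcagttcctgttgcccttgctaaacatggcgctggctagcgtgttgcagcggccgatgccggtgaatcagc
Psme1: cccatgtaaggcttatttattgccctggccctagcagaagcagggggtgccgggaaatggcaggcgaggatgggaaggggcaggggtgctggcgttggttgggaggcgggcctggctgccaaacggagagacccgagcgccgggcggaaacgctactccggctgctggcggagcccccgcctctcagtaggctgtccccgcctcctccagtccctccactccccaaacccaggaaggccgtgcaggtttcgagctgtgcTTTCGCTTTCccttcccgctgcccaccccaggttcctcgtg
Psmd14 held 3 CCAAT matches, a pair of which overlap on opposite strands, Psmd12 and Psmb5 each held 1 antioxidant response element core, and Psme1 held 1 interferon-stimulated response element core. Over the 43 promoters found for 40 members, 6 (13.95%) held the antioxidant response element core, against 12.4% of 32851 promoters. The CCAAT box was in 14 of the 43 (32.6%), against 37.4%. The interferon-stimulated response element core was in 5 of the 43 (11.6%), against 3.44%, those of Psmb3, Psmd4, Psmd9, Psme1 and Psmg4. This last motif was searched after the values were seen. Matches of different motifs overlapped in 0 cases. These matches are letters in a window and were not read as bound sites.

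A gene was tested for its ratios where it reached 10 CPM over all retained cells, which 7844 genes did, with 44 of the 48 members and every core and cap gene among them. The 4 others were sparse. Psma8, the testis form of an alpha subunit, had 0 UMIs in all 3 gates, which allows at most 0.0186, 0.225 and 0.0978 CPM in the ATII, ATI and keratin-high gates. Psmb11, the thymus form of a catalytic subunit, had 11, 3 and 0 UMIs in that order. Psme2b, a near copy of Psme2 whose reads may be shared with it, was at 1.57, 3.97 and 5.67 CPM, and Psmc3ip at 5.06, 4.50 and 4.53 CPM. Psmd1, Psmg3, Psma2 and Psme2b also overlap another protein-coding gene on their own strand, so their counts are less certain.

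Core and cap genes were lowest in the ATII gate and highest in the keratin-high gate, and the cap differed more than the core. The 14 core genes together were at 2174 CPM (2167 to 2181) in the ATII gate, 3015 CPM (2985 to 3044) in the ATI gate and 3728 CPM (3707 to 3750.1) in the keratin-high gate. The 17 cap genes together were at 1257 CPM (1251 to 1262), 2115 CPM (2090.5 to 2140) and 2688 CPM (2669 to 2706). For each core UMI there were therefore 0.578 cap UMIs (0.575 to 0.581) in the ATII gate, 0.702 (0.691 to 0.712) in the ATI gate and 0.721 (0.714 to 0.727) in the keratin-high gate. The intervals of the cap per core UMIs did not overlap between any pair of gates, in sums over cells of unequal depth. Single cells spread widely around these sums. The middle 50% of cells lay between 8.99 and 14.3 cap UMIs per 10000 in the ATII gate (median 11.4), between 16.0 and 25.2 in the ATI gate (median 20.3) and between 20.2 and 30.5 in the keratin-high gate (median 25.1). For the core the middle 50% lay between 16.1 and 24.1 (median 20.3), between 23.4 and 35.2 (median 28.7) and between 28.4 and 41.98 (median 34.9).

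**Figure D1:**
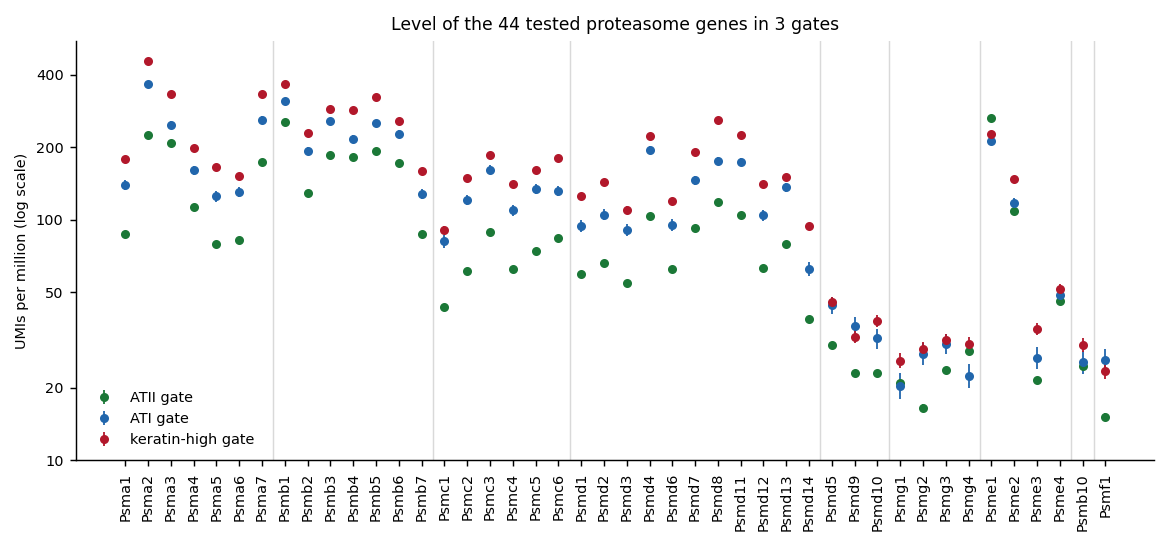
Level of the 44 tested members (x axis, by role) in CPM on a log axis, with 1 point per gate and the exact 95% Poisson interval, which is often smaller than the point. The keratin-high point lies above the ATII point for every core and cap gene, with the ATI point between them, whereas Psme1 is highest in the ATII gate at 264 CPM.

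The median tested gene was also higher in CPM outside the ATII gate, by 0.34 on the log2 scale in the ATI gate and by 0.35 in the keratin-high gate. Ratios are therefore given on the log2 scale after subtracting that of the median gene, and a gene was counted as past the fold when this centered ratio exceeded 1.2-fold (0.26) in either direction. Between the ATI and ATII gates, 22 of the 44 members were higher and 5 lower, beside 26.7% and 29.3% of all 7844 genes. Without the centering, 36 were higher and 2 lower, beside 57.1% and 15.5% of all genes. At a stricter 1.5-fold 1 member was higher and 2 lower, beside 11.2% and 16.2%. The cap carried most of this difference, with 15 of 17 genes higher and a median of 0.38, and Psmd6 (0.26) and Psmd8 (0.23) just under the fold. Of the 14 core genes 4 were higher, with a median of 0.18, and all 4 were alpha genes: Psma1, Psma2, Psma5 and Psma6. The other alpha genes were Psma7 (0.24), Psma4 (0.16) and Psma3 (−0.09), the last being the lowest of the core genes. Among the 7 beta genes 0 passed the fold, with a range of −0.08 to 0.23.

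Within the cap, the ATPase ring stood first. All 6 ATPase genes were past the fold in the ATI gate, with a median of 0.51. Psmc2 (chr5:21785283-21803787, plus strand) was at 61.2 CPM (60.0 to 62.4) in the ATII gate, 121 CPM (115 to 127) in the ATI gate and 149 CPM (145 to 153) in the keratin-high gate. Its centered ratio of ATI over ATII was 0.64 (0.56 to 0.71), the highest of the 44 members. Next came the ATPase Psmc1 at 0.57 (0.48 to 0.66), which went from 43.2 CPM in the ATII gate to 81.3 CPM in the ATI gate, and Psmd4, a ubiquitin receptor of the cap, at 0.57 (0.51 to 0.63), which went from 104 to 194 CPM. The ATPases Psmc3 and Psmc5 both had a centered ratio of 0.51.

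The catalytic subunits moved little between these gates. Psmb5, which carries the chymotrypsin-like site, was at 194 CPM (192 to 196) in the ATII gate, 252 CPM (244 to 261) in the ATI gate and 323 CPM (316 to 329) in the keratin-high gate, so that its centered ratio of ATI over ATII was 0.04 (−0.02 to 0.09). For Psmb6, with the caspase-like site, the ratio was 0.06 (0.00 to 0.11). Psmb7, with the trypsin-like site, was at 87.5, 128 and 160 CPM in the ATII, ATI and keratin-high gates, and its ratio of ATI over ATII was 0.21 (0.13 to 0.28). All 3 stayed under the fold.

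The 5 members lower in the ATI gate were no core or cap genes. Psmg4, a core assembly chaperone, was at 28.6 CPM (27.7 to 29.4) in the ATII gate and 22.5 CPM (20.0 to 25.2) in the ATI gate, a centered ratio of −0.69 (−0.86 to −0.52). Psme1, a subunit of the PA28 activator that interferon induces, was at 264 CPM (261 to 267) in the ATII gate, 211 CPM (204 to 219) in the ATI gate and 226 CPM (221 to 231) in the keratin-high gate, a ratio of −0.66 (−0.72 to −0.61) between the ATI and ATII gates. These were the only tested members whose ratio was below −0.50, and both were also lower in plain CPM. Psmg1, another core assembly chaperone, had −0.39 (−0.57 to −0.21). Psmb10, the immunoproteasome form of Psmb7, had −0.29 (−0.45 to −0.13), and Psme4, the activator PA200, had −0.27 (−0.39 to −0.15). The last pair turned positive without the centering, at 0.06 for Psmb10 and 0.08 for Psme4. Psme2, the partner of Psme1 in PA28, was at 108 CPM in the ATII gate and 117 CPM in the ATI gate, a centered ratio of −0.23 that did not reach the fold. Of the remaining assembly factors, Psmg2 was higher at 0.40 and Psmg3 was at 0.02.

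**Figure D2:**
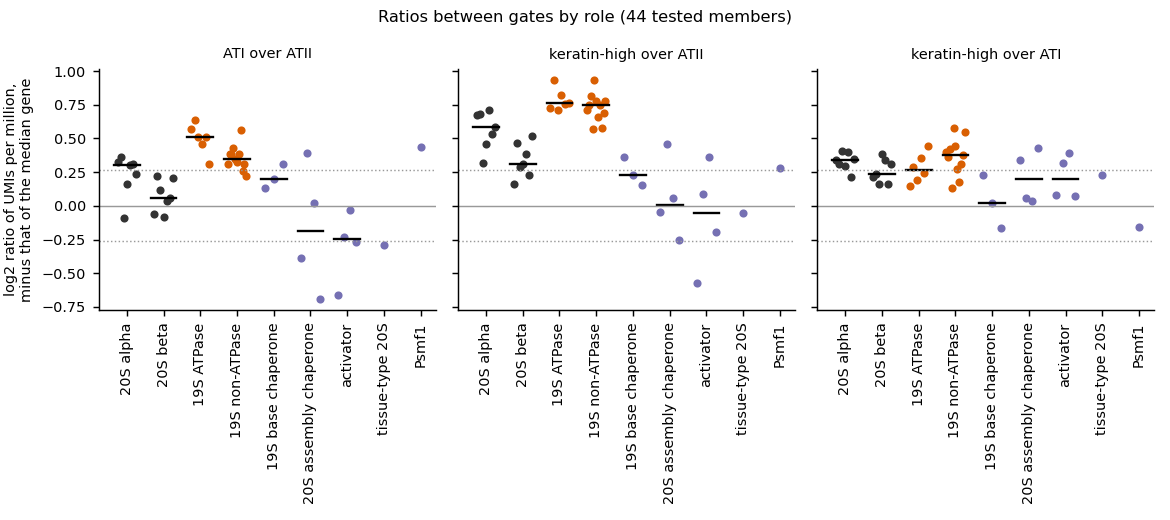
Centered log2 ratio (y axis) of each of the 44 tested members between gates, by role (x axis), with the role's median as a bar and the 1.2-fold limits as dotted lines (the point under tissue-type 20S is Psmb10). ATPase and non-ATPase cap genes (orange) lie at medians of 0.51 and 0.35 in ATI over ATII and 0.76 and 0.75 in keratin-high over ATII. These are above the medians of the alpha and beta core genes (black), while single core and cap genes overlap.

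The keratin-high gate, set against the same ATII cells, showed the widest difference. Here 33 of the 44 members were higher and 1 lower, beside 29.9% and 29.7% of all genes, and without the centering 41 were higher and 0 lower, beside 57.5% and 15.02%. All 17 cap genes were past the fold, at 0.57 to 0.93 with a median of 0.75, and 12 of the 14 core genes, with a median of 0.46. Summed over its genes, the cap was 1.68-fold (1.66 to 1.69) and the core 1.34-fold (1.33 to 1.35) above the median gene's ratio.

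Psmd14, the deubiquitinase of the cap (chr2:61711694-61800376, plus strand), was at 38.5 CPM (37.6 to 39.5) in the ATII gate, 62.3 CPM (58.2 to 66.7) in the ATI gate and 93.7 CPM (90.3 to 97.2) in the keratin-high gate. Its ratio of keratin-high over ATII was 0.93 (0.87 to 1.00), level with the ATPase Psmc2 at 0.93 (0.88 to 0.98). Psmc4, another ATPase, followed at 0.83 (0.77 to 0.88) with 62.4 CPM in the ATII gate and 141 CPM in the keratin-high gate. Psmd12, a scaffold subunit of the cap's lid, had 0.81 (0.76 to 0.86) with 62.9 and 141 CPM. Psmd8, also of the lid, had 0.78 (0.74 to 0.81) with 118 and 259 CPM. The intervals of the first pair overlapped each other, and so did those of the other 3.

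By their medians alpha genes exceeded beta genes, while single genes overlapped, with the alpha gene Psma3 at 0.32 under Psmb7, Psmb2 (0.47) and Psmb5. All 7 alpha genes were past the fold, with a median of 0.59, and 5 of the 7 beta genes, with a median of 0.31. Among the catalytic subunits, Psmb7 had 0.52 (0.47 to 0.57), Psmb5 0.38 (0.35 to 0.42) and Psmb6 0.23 (0.19 to 0.26), the last of which missed the fold together with Psmb1 (0.16). The lowest 5 members were Psme1 at −0.58 (−0.61 to −0.54), Psmg4 at −0.25 (−0.36 to −0.15), Psme4 at −0.19 (−0.27 to −0.11), Psmb10 at −0.05 (−0.16 to 0.05) and Psmg1 at −0.04 (−0.16 to 0.07). Of these, Psme1 was the member past the fold, while Psmg4 lay just short of it and both other intervals that reach across 0 belong to Psmb10 and Psmg1. Psme3, the nuclear activator PA28-gamma, was higher at 0.36 (0.26 to 0.46), and Psmf1, which encodes the inhibitor PI31, at 0.28 (0.16 to 0.40).

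The keratin-high and ATI gates were nearer to each other, and the median gene differed by 0.01 between them. Of the 44 members 25 were higher in the keratin-high gate and 0 lower, beside 25.7% and 24.3% of all genes. In cells of 10000 to 30000 UMIs this fell to 10 higher and 1 lower, beside 22.0% and 21.01% of all genes, so that at like depth the share of members that were higher was near that of all genes. Psmd14 led at 0.58 (0.46 to 0.69), followed by Psmd8 at 0.55 (0.48 to 0.61), the ATPase Psmc6 at 0.45 (0.37 to 0.52), the base scaffold Psmd2 at 0.44 (0.36 to 0.53) and Psmg4 at 0.43 (0.24 to 0.62). At the other end were Psmd9 at −0.16 (−0.32 to 0.00), Psmf1 at −0.16 (−0.35 to 0.03), Psmd5 at 0.02 (−0.12 to 0.17), Psmg3 at 0.03 (−0.13 to 0.21) and Psmg2 at 0.06 (−0.12 to 0.24), none of them past the fold. The core median was 0.31 with 9 of 14 genes past the fold, and the cap median was 0.36 with 12 of 17. Psmb5 had 0.34 (0.29 to 0.40), Psmb7 0.31 (0.23 to 0.39) and Psmb6 0.16 (0.10 to 0.22).

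Depth differed between the gates, so the ratios were also taken between cells of like depth. For ATI over ATII the summed core ratio was 0.69 (0.64 to 0.73) in cells under 10000 UMIs, 0.32 (0.29 to 0.34) at 10000 to 20000 and 0.14 (0.12 to 0.17) at 20000 to 40000. The cap ratio was 0.78 (0.73 to 0.84), 0.60 (0.57 to 0.63) and 0.43 (0.40 to 0.46) in the same bins. Both were thus positive in each bin and larger in shallow cells, where the core and cap intervals overlapped. For keratin-high over ATII the core ratio was 0.78, 0.42, 0.38 and 0.36 from under 10000 to over 40000 UMIs, and the cap ratio was 0.90, 0.75, 0.72 and 0.66. Between the keratin-high and ATI gates the order was the other way, with core ratios of 0.10, 0.11 and 0.24 and cap ratios of 0.12, 0.15 and 0.30 from the shallow to the deep bin. Their core and cap intervals overlapped under 10000 UMIs (0.02 to 0.17 and 0.04 to 0.21) and at 10000 to 20000 (0.08 to 0.14 and 0.12 to 0.19). At 20000 to 40000 UMIs they were apart (0.209 to 0.261 and 0.265 to 0.327).

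**Figure D3:**
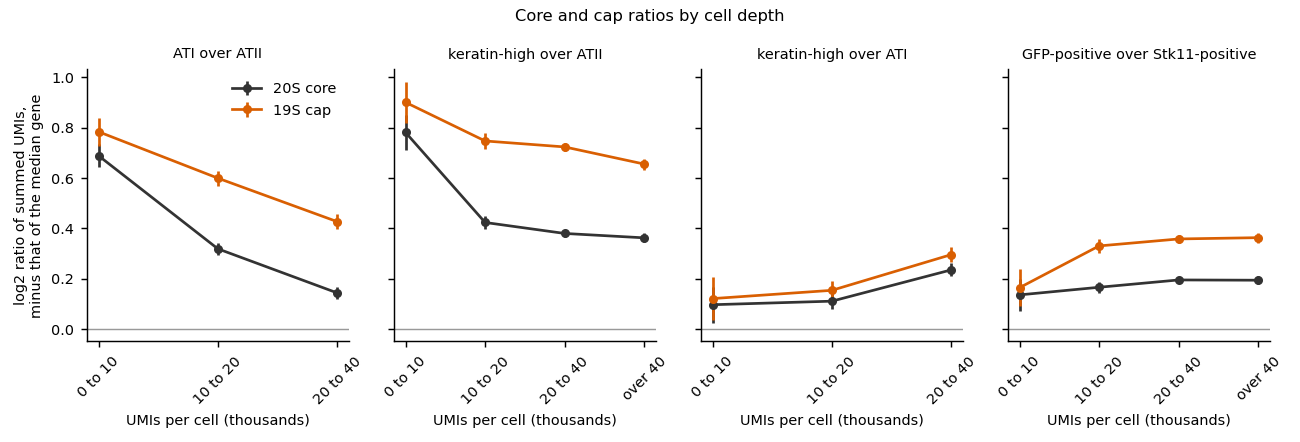
Centered log2 ratio (y axis) of the summed core (black) and cap (orange) genes in bins of UMIs per cell (x axis), with exact 95% intervals, for 4 comparisons. In ATI over ATII the core falls from 0.69 to 0.14 and the cap from 0.78 to 0.43 between the shallow and the deep bin, and all points of all panels are above 0.

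Along the keratin level itself the genes rose before the gate was reached. Against 2546 cells with Krt8 plus Krt18 under 5 UMIs per 10000, the cap ratio was 0.05 (0.03 to 0.06) at 5 to 10, 0.21 (0.19 to 0.22) at 10 to 20, 0.50 (0.49 to 0.52) at 20 to 50, 0.81 (0.79 to 0.83) at 50 to 100 and 0.97 (0.95 to 0.99) at 100 to 200. The core ratio was 0.06, 0.12, 0.29, 0.50 and 0.61 over the same bins. In the 40 cells at 200 and over, the cap was at 0.90 (0.84 to 0.95) and the core at 0.51 (0.47 to 0.56), below the bin before. Keratin bins mix the gates, since 68.4% of the lowest bin and 31.6% of the bin at 20 to 50 were ATII cells.

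**Figure D4:**
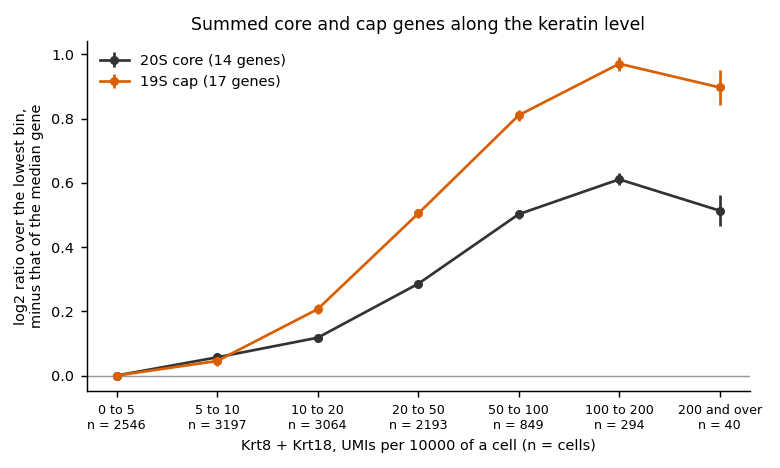
Centered log2 ratio (y axis) of the summed core (black) and cap (orange) genes over the lowest keratin bin, in bins of Krt8 plus Krt18 (x axis, UMIs per 10000, with the number of cells), with exact 95% intervals. The cap rises to 0.97 and the core to 0.61 at 100 to 200, and both are lower in the last bin of 40 cells.

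Across Hopx bins of cells under the keratin limit the cap sum was higher with more Hopx, and the core differed little after centering. The cap sum was 1325 CPM (1319.9 to 1331) in the 8265 cells with Hopx under 2, 1617 CPM (1599 to 1635) at 2 to 5, 1919.9 CPM (1898 to 1942) at 5 to 15, 2105 CPM (2073 to 2138) at 15 to 30 and 2128 CPM (2090.3 to 2165) at 30 and over. The core sum was 2249.6, 2550.1, 2869, 3042 and 2979.9 CPM in the same bins, and for both sums the intervals of the last pair of bins overlapped. The median gene shifted as well, by 0.30 on the log2 scale from the first to the last bin, and the median depth fell from 20250 to 10205 UMIs per cell, whose part in the sums was not tested. The centered cap ratio over the first bin was 0.17 (0.15 to 0.18), 0.28 (0.26 to 0.29), 0.38 (0.36 to 0.41) and 0.39 (0.36 to 0.41) in the next 4 bins. The centered core ratio was 0.06 (0.05 to 0.07), 0.09 (0.08 to 0.11), 0.15 (0.13 to 0.17) and 0.11 (0.09 to 0.13), so that most of the core difference in CPM was the shift of the median gene. Within the keratin-high gate the values were slightly lower in cells with Hopx. The cap sum was 2765 CPM (2740.5 to 2789) in 620 cells with Hopx under 2, 2583 CPM (2553 to 2614) in 436 cells at 2 to 15 and 2568 CPM (2500.1 to 2636) in 127 cells at 15 and over. The core sum was 3841, 3559 and 3636 CPM in these bins. Their median depth went from 27049 to 22244 and 15598 UMIs and their share of cycling cells, defined next, from 12.1% (9.63 to 14.9) to 1.61% (0.648 to 3.28) and 0% (up to 2.86), and the part of either in these sums was not tested.

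Cycling cells, those with at least 3 UMIs over 10 cell cycle genes, carried more proteasome UMIs too. The 365 cycling cells had a core sum of 3538 CPM (3505 to 3570.2) against 2471 CPM (2465 to 2477) in the other 11818, and a cap sum of 2373 CPM (2347 to 2399.8) against 1544 CPM (1539 to 1549), with median depths of 34329 and 18991 UMIs. Cycling cells were 2.25% (1.92 to 2.63) of the ATII gate, 0.523% (0.170 to 1.22) of the ATI gate and 6.93% (5.55 to 8.53) of the keratin-high gate, at unequal depth, and the part of depth in these shares was not tested. Without the cycling cells, the counts of higher and lower members were 22 and 5 for ATI over ATII, beside 26.7% and 29.7% of all genes. For keratin-high over ATII they were 34 and 1, beside 30.0% and 30.2%, and for keratin-high over ATI 24 and 0, beside 24.7% and 23.7%.

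The other comparison split the cells by transcripts of the Lkb1 allele itself. GFP-positive cells had a GFP UMI and no Stk11 UMI (3360 cells, median 24517 UMIs), and Stk11-positive cells had the reverse (3367 cells, median 23635 UMIs), while 29 cells had both and 5427, with a median of 12780 UMIs, had neither. This is a split of cells by transcript at a given depth and not one of mice. FLPo-ERT2 with tamoxifen, which only the Restored mice had together, removes the trap, so the split may largely follow the mice. Differences of mouse, treatment or sex cannot be told apart from it, over all cells or within a gate. GFP UMIs were found in 27.8% (27.0 to 28.6) of all retained cells but in 3.28% (1.89 to 5.27) of 488 cells with markers of endothelial, fibroblast or immune cells, whose median depth was 13956 UMIs, and Stk11 UMIs in 27.9% (27.1 to 28.7) and 18.9% of them. The Stk11-positive cells held more fibroblast, club, endothelial and myeloid transcripts. Their fibroblast markers summed to 855 CPM against 23.3 CPM in the GFP-positive cells, club markers to 1204 against 45.04 CPM, endothelial markers to 28.8 against 5.13 CPM, myeloid markers to 37.8 against 12.4 CPM, while T cell markers summed to 0.222 against 0.211 CPM. Ciliated markers summed to 42.9 CPM in Stk11-positive and 126 CPM in GFP-positive cells, of which Tppp3 made up 27.98 and 121 CPM, and without it the other 3 summed to 14.96 and 5.28 CPM. The ATII gate held 51.8% of the GFP-positive and 69.9% of the Stk11-positive cells, and the keratin-high gate 19.1% and 4.90%.

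GFP-positive cells had the higher proteasome levels. The core sum was 2988 CPM (2977 to 2999.7) in GFP-positive and 2238 CPM (2228 to 2248) in Stk11-positive cells, and the cap sum was 1969 CPM (1960.3 to 1979) and 1321 CPM (1313 to 1328). The median gene was itself 0.22 higher on the log2 scale. After centering, 20 of the 44 members were higher and 0 lower, beside 13.1% and 16.1% of all genes, and without the centering 37 were higher and 0 lower, beside 41.5% and 7.18%. At 1.5-fold 0 members were higher, beside 3.44% of all genes. The 20 were 15 of the 17 cap genes, among them all 6 ATPases, and 5 of the 14 core genes. The cap median was 0.38 and the core median 0.21, and the chaperone and activator groups had medians between −0.03 and 0.05.

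Psmd3, a lid subunit, had the highest ratio at 0.49 (0.44 to 0.55), with 86.2 CPM (84.3 to 88.1) in GFP-positive and 52.8 CPM (51.2 to 54.3) in Stk11-positive cells. It was followed by Psmc2 at 0.45 (0.40 to 0.50), which had 104 and 65.7 CPM, Psmc4 at 0.43 (0.38 to 0.48), the lid subunit Psmd11 at 0.42 (0.39 to 0.46) and Psmc1 at 0.42 (0.36 to 0.48). Their intervals overlap. The lowest were Psmg4 at −0.12 (−0.19 to −0.04), Psme1 at −0.11 (−0.14 to −0.08), Psme2 at −0.09 (−0.13 to −0.06), Psmg1 at −0.07 (−0.16 to 0.02) and the alpha gene Psma3 at 0.00 (−0.03 to 0.03), none past the fold. Of the catalytic subunits, Psmb7 had 0.31 (0.27 to 0.35), Psmb5 0.17 (0.14 to 0.19) and Psmb6 0.13 (0.10 to 0.16).

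**Figure D5:**
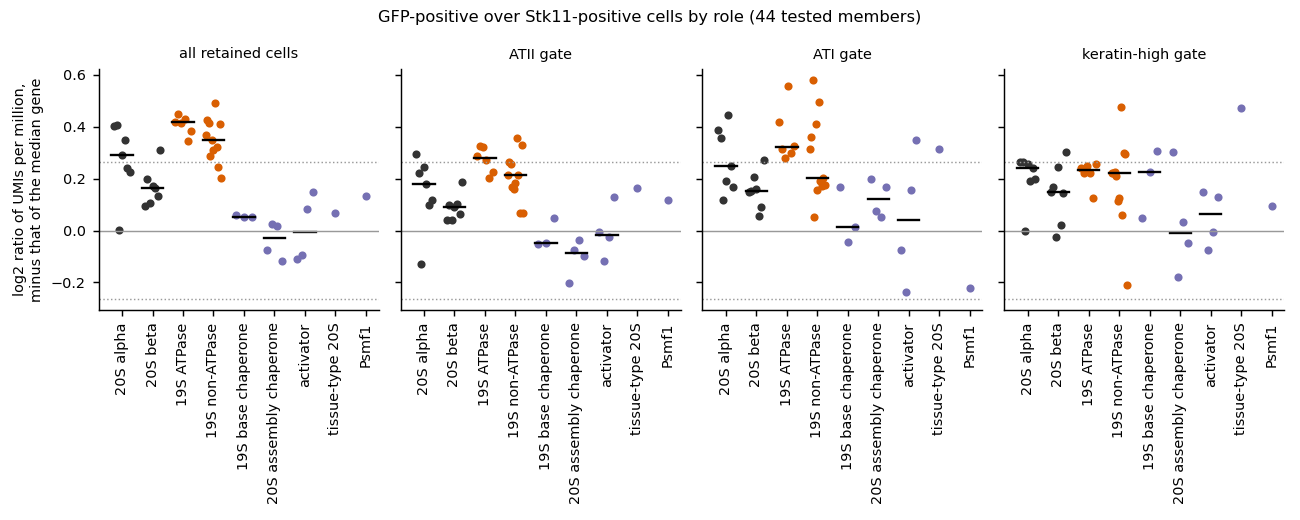
Centered log2 ratio (y axis) of GFP-positive over Stk11-positive cells for the 44 tested members by role (x axis), in all retained cells and within each gate, with the role's median as a bar and the 1.2-fold limits as dotted lines. The ATPase genes (orange) lie above 0 in each panel, with medians of 0.42, 0.28, 0.32 and 0.23.

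Within each gate the difference was smaller and of the same direction for core and cap sums. In the ATII gate the cap sum was 1505 CPM (1494 to 1516) in 1742 GFP-positive and 1137 CPM (1129 to 1145) in 2353 Stk11-positive cells. In the ATI gate it was 2452 CPM (2406 to 2499) in 242 and 1854 CPM (1814 to 1894) in 266 cells, and in the keratin-high gate 2796 CPM (2773 to 2819) in 642 and 2434 CPM (2389 to 2479) in 165 cells. Each pair of intervals was apart, yet Stk11-positive ATI cells still stood above GFP-positive ATII cells. The counts of members past the fold were 8 higher and 0 lower in the ATII gate (beside 11.1% and 12.9% of all genes), 17 and 0 in the ATI gate (beside 16.5% and 17.5%) and 8 and 0 in the keratin-high gate (beside 18.2% and 16.5%). The count in the keratin-high gate, 8 of 44, was no larger a share than among all genes, and whether the gates differ from each other was not tested. The cap gave 7, 11 and 3 of these genes and the core 1, 4 and 2.

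Of the 44 members 31 (70.5%) had a ratio above 0 in each of the 3 gates, against 21.3% of all tested genes, with 12 of 14 core and 16 of 17 cap genes among them. Psmd3 was past the fold in each gate, at 0.36 (0.29 to 0.43), 0.49 (0.28 to 0.71) and 0.48 (0.32 to 0.64) in the ATII, ATI and keratin-high gates. The cap gene with a ratio below 0 in a gate was Psmd8, at −0.21 (−0.29 to −0.12) in the keratin-high gate, where it was at 261 CPM in GFP-positive and 295 CPM in Stk11-positive cells. Both genes are named for their place in this count, after their values were seen. Psmb10, the immunoproteasome gene, was chosen in the same way. It was at 28.6 CPM in GFP-positive and 22.5 CPM in Stk11-positive ATII cells, at 30.7 and 22.9 CPM in ATI cells and at 32.0 and 22.6 CPM in keratin-high cells. Its centered ratio was 0.16 (0.06 to 0.27), 0.31 (−0.07 to 0.70) and 0.47 (0.17 to 0.78) in these gates and 0.07 (−0.02 to 0.15) over all cells.

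By depth, the cap ratio of GFP-positive over Stk11-positive cells was 0.16 (0.09 to 0.24) under 10000 UMIs, 0.33 (0.30 to 0.36) at 10000 to 20000, 0.36 (0.34 to 0.37) at 20000 to 40000 and 0.36 (0.34 to 0.38) above, and the core ratio was 0.14, 0.17, 0.20 and 0.19. Cycling cells were 6.58% (5.76 to 7.47) of the GFP-positive and 1.43% (1.05 to 1.89) of the Stk11-positive cells. With cycling cells left out, 19 members were higher and 0 lower, beside 12.5% and 16.0% of all genes. Without the cells that carry markers of endothelial, fibroblast or immune cells 20 were higher and 0 lower, beside 12.99% and 15.9%. The same counts were found when cells with airway markers were also left out, beside 12.99% and 15.7%.

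Genes that act with the proteasome were taken from a list of 42 symbols, of which 38 were found and 37 tested, while Zfand2a, at 9.15 CPM over all retained cells, was under the limit. Between the ATI and ATII gates 6 of the 37 were past the fold upward and 10 downward, beside 26.7% and 29.3% of all genes, so that neither share exceeded that of all genes. Between the keratin-high and ATII gates the counts were 15 and 6, beside 29.9% and 29.7%, and between the keratin-high and ATI gates 14 and 2, beside 25.7% and 24.3%. Between GFP-positive and Stk11-positive cells 5 were higher and 4 lower, beside 13.1% and 16.1%, a share near that of all genes. Genes tied to the cap did not all go one way. Usp14, the ubiquitin protease that docks on the cap, was at 41.8 CPM (40.8 to 42.8) in the ATII gate, 74.7 CPM (70.1 to 79.5) in the ATI gate and 104 CPM (100 to 108) in the keratin-high gate, with ratios of 0.49 for ATI over ATII and 0.96 for keratin-high over ATII. Txnl1, a thioredoxin-like protein bound to the cap, had 0.32 and 0.91 in these comparisons, and Akirin2, which carries proteasomes into the nucleus, had 0.34 and 0.68. The cap's other ubiquitin protease, Uchl5, had 0.42 and 0.50, and its ubiquitin receptor Adrm1 had 0.10 and 0.56, the first of them under the fold. Sem1, a small subunit of the lid outside the symbol rule, had −0.13 and −0.05, and AI314180, the mouse ECM29 proteasome adaptor, had −0.43 and −0.35. Ngly1, an enzyme that removes N-linked sugars from proteins bound for the proteasome, had 0.62 between the ATI and ATII gates, and the shuttle gene Ubqln4 had 0.46.

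The immunoproteasome genes set apart by the rule were lower in the ATI and keratin-high gates than in the ATII gate. Psmb8 was at 71.9 CPM (70.6 to 73.2) in the ATII gate, 61.7 CPM (57.5 to 66.0) in the ATI gate and 62.9 CPM (60.1 to 65.8) in the keratin-high gate, with centered ratios of −0.57 and −0.54 over the ATII gate. In the other comparisons Psmb8 was at 0.02 (−0.10 to 0.14) in keratin-high over ATI, at −0.08 (−0.13 to −0.03) in GFP-positive over Stk11-positive cells and at 0.35 (0.15 to 0.56), past the fold upward, in the same comparison within the keratin-high gate. Psmb9 was at 18.9 CPM (18.2 to 19.5), 16.8 CPM (14.7 to 19.1) and 9.72 CPM (8.64 to 10.9), with ratios of −0.51 and −1.31. Psmb10, Psme1 and Psme2 are interferon-inducible too, and Psme2 and Psmb10 did not follow in every comparison, at −0.23 and −0.29 in ATI over ATII, 0.09 and −0.05 in keratin-high over ATII and 0.32 and 0.23 in keratin-high over ATI. The heat shock genes Hspa1b (−0.79), Dnajb1 (−0.66) and Hspa1a (−0.60) were also lower in the ATI gate, as was Ddi2 (−0.99), whose protease activates the proteasome gene regulator encoded by Nfe2l1. Nfe2l1 itself had ratios of −0.13 in ATI over ATII and −0.03 in keratin-high over ATII, and Pomp, the chaperone that matures the core, had 0.16 and 0.32.

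Over the keratin-high and ATII gates, Sqstm1, an autophagy receptor for ubiquitin, was also among the higher genes at 0.49, and the lower genes included, besides Psmb8, Psmb9 and Ddi2, the ubiquitin-ribosomal fusion gene Rps27a (−0.32) and AI314180 (−0.35). Between the keratin-high and ATI gates the heat shock genes led, with Hspa1b at 0.99, Dnajb1 at 0.91 and Hspa1a at 0.83, followed by Txnl1 (0.58) and Sqstm1 (0.58), and the pair that was lower was Psmb9 (−0.80) and Ngly1 (−0.53). In GFP-positive over Stk11-positive cells the 5 higher genes were Hspa1a (0.84), Hspa1b (0.72), Usp14 (0.44), Adrm1 (0.37) and Txnl1 (0.27), and the lower ones included Ddi2 (−0.54), Psmb9 (−0.49) and Rps27a (−0.29). Hspa1a and Hspa1b are near copies whose reads may be split between them.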

How the data were processed

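The deposited values were counts, whole UMI counts per gene and cell in 1 matrix that pools the libraries, made by the authors from 10x 3-prime v3 libraries aligned to mm10 with Cell Ranger 3.0.2, and not normalized. The annotation release is not given in the sources used here. With no mouse assigned to any cell, the matrix was treated as 1 sample without a test. Levels are UMIs summed over a group per 1000000 (CPM), and the intervals are exact Poisson for levels, conditional binomial for ratios and Clopper-Pearson for shares, at 95%. A count of 0 allows up to 3 counts. Genes under 10 CPM over all retained cells were not tested. Doublets were kept, and leaving out the 6% of cells with the most UMIs was tried. The named genes are the catalytic subunits, the 5 highest and 5 lowest members of each comparison and up to 5 other pathway genes past the fold in each direction, beside others that fill out a role. Members, gates and lists were chosen with earlier results of these data known. Gene positions came from GENCODE M21 (GRCm38), which held all 48 members. The ratio step was tested on simulated data. The scripts used numpy 2.4.6 and scipy 1.17.1 for the intervals, pandas 2.3.3 for the tables and matplotlib 3.10.9 for the plots, under Python 3.11.15.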

Additional observations from a re-analysis of the deposited data

How the results depend on the processing

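The counts were taken again under the alternatives below, and the summed and median core and cap ratios stayed positive in all of them. The summed cap ratio ranged from 0.38 to 0.75 for ATI over ATII, 0.71 to 1.10 for keratin-high over ATII, 0.23 to 0.43 for keratin-high over ATI and 0.14 to 0.58 for GFP-positive over Stk11-positive cells, and the summed core ratio from 0.08 to 0.47, 0.39 to 0.78, 0.18 to 0.38 and 0.09 to 0.42. Without centering, members higher and lower were 36 and 2 for ATI over ATII (beside 57.1% and 15.5% of all genes). In this setting 0 were lower for keratin-high over ATII (15.02%), while 37 were higher for GFP-positive over Stk11-positive cells (41.5%). Psme4 (0.076) and Psmb10 (0.057) then turned positive in ATI over ATII. At 1.5-fold, the counts were 1 higher and 2 lower for ATI over ATII (beside 11.2% and 16.2% of all genes), 19 and 0 for keratin-high over ATII (14.01% and 15.8%), 0 higher for keratin-high over ATI (10.5%) and 0 higher for GFP-positive over Stk11-positive cells (3.44%). At that fold the share of members that were higher was thus above that of all genes in keratin-high over ATII and below it in the other 3 comparisons. With at least 1 CPM, the mean of cells, at most 10% mitochondrial UMIs, without the 6% deepest cells, thinned to 5000 UMIs (11084 cells kept, 1099 left out), with doubled gate limits, or, chosen after seeing the data, centered on genes of 50 to 300 CPM, 2 members were lower for keratin-high over ATII in place of 1. Of all genes, 29.3% to 33.0% were lower for keratin-high over ATII in these settings. For keratin-high over ATI 1 was lower with the mean of cells, thinned cells or doubled gates, beside 24.8% to 30.0% of all genes. In cells of 10000 to 30000 UMIs, 3 were lower for keratin-high over ATII (beside 30.5% of all genes). For keratin-high over ATI 10 were higher and 1 lower in these cells (beside 22.0% and 21.01%). The GFP-positive count was 8 higher within the ATII gate and 8 within the keratin-high gate, beside 11.1% and 18.2% of all genes. In cells of 10000 to 30000 UMIs, chosen after seeing the data, 12 were higher in the ATII gate (beside 12.7% of all genes). In those cells 5 were higher in the keratin-high gate (19.6%, above the share of members), and 15 higher and 1 lower in the ATI gate (18.9% and 19.7%). The causes of these changes of count were otherwise not tested. No paired analysis was possible because cells carry no mouse name. Depth limits Psma8 and Psmb11, which were at or near 0, and intervals leave out the spread between mice.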
